A study of Mus musculus with 16 samples.

Results

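Genes of glycolysis and of the cellular response to low oxygen were followed in 2 tissues of the mouse intervertebral disc. The nucleus pulposus (NP) is its soft core, and the annulus fibrosus (AF) is the fibrous ring around the core. The set was given as 41 gene symbols, and each gene was represented by its probe set with the highest mean signal. Of the 41 genes, 39 were measured here, among 19505 genes with a symbol and 22206 probe sets tested. Gpi1 and Eno1 were not analysed here. Of the 39, 22 belong to glycolysis, glucose uptake and lactate export, and 17 to the hypoxia-inducible factors (HIFs), their oxygen sensors and their targets. The samples came from 8 female mice of 3 to 4 months, and both genotypes carry Sox9 fl/fl, in which loxP sites flank part of both copies of the cartilage transcription factor gene Sox9. The 4 Sox9 conditional knock-out mice (cKO) also carry AcanCreERT2, a tamoxifen-inducible Cre driven by the aggrecan gene of cartilage-like cells, and received tamoxifen on 2 consecutive days. The 4 Sox9 control mice (CTR) are Sox9 fl/fl with no Cre named, and the labels do not say whether they were injected, so that drug and genotype cannot be told apart. Tissue collection is given as 5 days after the first injection for both genotypes, while injection days are given only for cKO. NP and AF of each mouse were separated, lumbar with caudal discs combined, and each gave 1 array, so that the groups NP cKO, NP CTR, AF cKO and AF CTR hold 4 arrays each. In such bulk samples, fewer cells of a type and less RNA per cell cannot be told apart. The values are log2 signals, so a difference of 1 is a doubling.

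Glycolysis splits glucose into pyruvate, and cells short of oxygen reduce the pyruvate to lactate and export it. The HIF alpha subunits are marked for destruction by prolyl hydroxylases, encoded by the Egln genes, whenever oxygen is present, and the marked protein is recognised by Vhl. When oxygen is short they persist and switch on genes of glucose uptake, glycolysis, blood vessel growth and mitochondrial turnover, and Egln1 and Egln3 are themselves targets. The adult NP has no blood vessels, and NP cells are known for a HIF-1 that stays active and for an energy supply that rests on glycolysis.

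HIF binds DNA at the letters ACGTG or GCGTG, and promoters of the members were searched for both on both strands, in the 250 bases before each gene start of RefSeq (build GRCm38.p6). A CACGTG was counted as overlapping matches to ACGTG on the 2 strands. Promoters were found for 37 of the 41 genes. At least 1 match was present in 33 of these (89.2%), against 41.5% of all genes with a promoter in the same collection. The member promoters are also richer in G and C, with a median of 61.0% against 52.4% over all promoters. Matches were present in 18 of 20 members that were higher in NP CTR than in AF CTR and in 14 of 15 other measured members, so the letters did not separate these. The promoters below belong to the 3 members with the smallest p in NP CTR against AF CTR that have a single promoter entry (Pfkl, Bnip3 and Egln3), and to Hif1a, the 1 member that was lower there. Capitals mark the matches, and each sequence runs 5′ to 3′ on the strand of the gene. Pfkl lies at chr10:78009808-78010057 on the minus strand, Bnip3 at chr7:138909507-138909756 (minus), Egln3 at chr12:54203875-54204124 (minus) and Hif1a at chr12:73907617-73907866 (plus).
Pfkl: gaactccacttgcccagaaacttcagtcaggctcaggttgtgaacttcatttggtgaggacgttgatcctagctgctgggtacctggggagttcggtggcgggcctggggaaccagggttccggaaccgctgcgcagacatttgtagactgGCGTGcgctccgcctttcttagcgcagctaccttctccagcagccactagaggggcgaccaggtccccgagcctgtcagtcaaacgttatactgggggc
Bnip3: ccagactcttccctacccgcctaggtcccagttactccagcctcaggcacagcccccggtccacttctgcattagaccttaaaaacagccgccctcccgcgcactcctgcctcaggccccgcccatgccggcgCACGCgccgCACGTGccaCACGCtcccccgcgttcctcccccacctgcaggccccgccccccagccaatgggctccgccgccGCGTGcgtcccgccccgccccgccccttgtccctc
Egln3: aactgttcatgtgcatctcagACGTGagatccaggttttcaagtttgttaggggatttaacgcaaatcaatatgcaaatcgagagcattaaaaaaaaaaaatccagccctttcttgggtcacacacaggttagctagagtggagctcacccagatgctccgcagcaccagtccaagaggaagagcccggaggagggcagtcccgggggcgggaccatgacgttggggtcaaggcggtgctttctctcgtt
Hif1a: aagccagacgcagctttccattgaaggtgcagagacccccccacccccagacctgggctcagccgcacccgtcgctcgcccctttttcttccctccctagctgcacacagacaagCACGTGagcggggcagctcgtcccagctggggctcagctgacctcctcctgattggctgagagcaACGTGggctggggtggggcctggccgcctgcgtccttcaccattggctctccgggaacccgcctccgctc
The Pfkl match begins 99 bases before the gene start and the Egln3 match 229 bases before it. Bnip3 holds 5 matches, which begin 117, 108, 107, 99 and 35 bases before the start, and Hif1a holds 3, which begin 135, 134 and 70 bases before it. A match in these windows is a description and was not tested as a binding site.

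Sox9 lay between 9.55 and 10.12 in NP cKO and between 15.95 and 16.79 in NP CTR, and between 11.43 and 12.99 in AF cKO and between 16.39 and 17.45 in AF CTR, so that all 16 labels fit its signal. Medians per array lay between 6.66 and 6.89, and the medians of the negative control probe sets between 6.14 and 6.59. In 38 of 39 members every group mean lay above the highest of these control medians, and the exception was Hif3a. The 9 AF and tendon markers had list means of 8.11 to 9.81 in NP cKO and 7.92 to 8.72 in NP CTR, against 12.38 to 14.18 in AF cKO and 12.50 to 13.29 in AF CTR. Of the 8 notochordal NP markers measured, 6 were called higher and 1 lower in NP than AF of cKO discs, and 5 higher and 1 lower in CTR discs. Skeletal muscle markers (18 genes) lay under the negative controls in all 8 NP arrays, at 5.56 to 5.88, and at 6.41 to 9.65 in AF cKO and 6.30 to 7.14 in AF CTR. The AF arrays also carried neutrophil and osteoblast markers, with means of up to 12.96 and 14.47 in AF cKO and 11.40 and 12.28 in AF CTR, against at most 7.99 and 6.04 in NP. Endothelial, osteoclast and cartilage means reached 7.98, 10.31 and 10.71 in AF cKO and 7.99, 9.18 and 13.68 in AF CTR. In NP they were at most 5.60, 5.66 and 8.55. Macrophage, erythroid and adipocyte means reached 8.75, 8.26 and 7.78 in AF cKO and 8.40, 6.94 and 9.64 in AF CTR. In NP these were at most 6.92, 6.35 and 6.08. The part of all these cell types in the differences between NP and AF was not tested.

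Many glycolysis and HIF genes had a higher signal in NP than in AF, from glucose uptake (Slc2a3) and phosphofructokinase (Pfkl) to the oxygen sensor Egln3 and the HIF targets Ndrg1 and Bnip3. Of 39 members, 21 were higher in NP than AF of cKO discs and 1 was lower, and 23 were higher and 1 lower in CTR discs (limma, p under 0.05 after Benjamini-Hochberg adjustment across the 22206 probe sets). The members were chosen with earlier results of these data known. The shares over all probe sets are therefore set beside them as a description and not as a test of the set. Over all probe sets, 25.9% were called in cKO and 20.1% in CTR discs: 13.3% were called higher and 12.6% lower in NP of cKO discs, and 9.96% higher and 10.1% lower in NP of CTR discs. In CTR discs 49.6% of all calls were thus higher in NP, and 65.1% when each array was centred on its median. The members' median difference was 0.96 in cKO and 1.07 in CTR discs on the log2 scale, and that of all probe sets was 0.07 and 0.04. Differences above 0 were found for 31 members in cKO and 35 in CTR discs, against 54.4% and 52.8% of all probe sets. NP lay above AF without overlap of the arrays for 21 members in cKO and 24 in CTR discs, as it did for 14.3% and 11.3% of all probe sets. It lay below without overlap for 1 member, Hif1a, in each genotype, and for 12.5% and 11.2% of all probe sets. In either tissue, the cKO against CTR comparisons reported further on use these same arrays. The genotypes share no arrays, but the fit estimates the spread of a probe set from all 16 arrays, so their calls are not independent. They gave 20 members higher in NP in common, 95.2% of the cKO calls and 87.0% of the CTR calls. Over all genes, 46.1% of the cKO calls and 57.0% of the CTR calls for a higher NP signal were in common. Glycolysis members were called higher in 14 of 22 cases in either genotype, and HIF members in 7 of 17 in cKO and 9 of 17 in CTR discs.

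**Figure D1:**
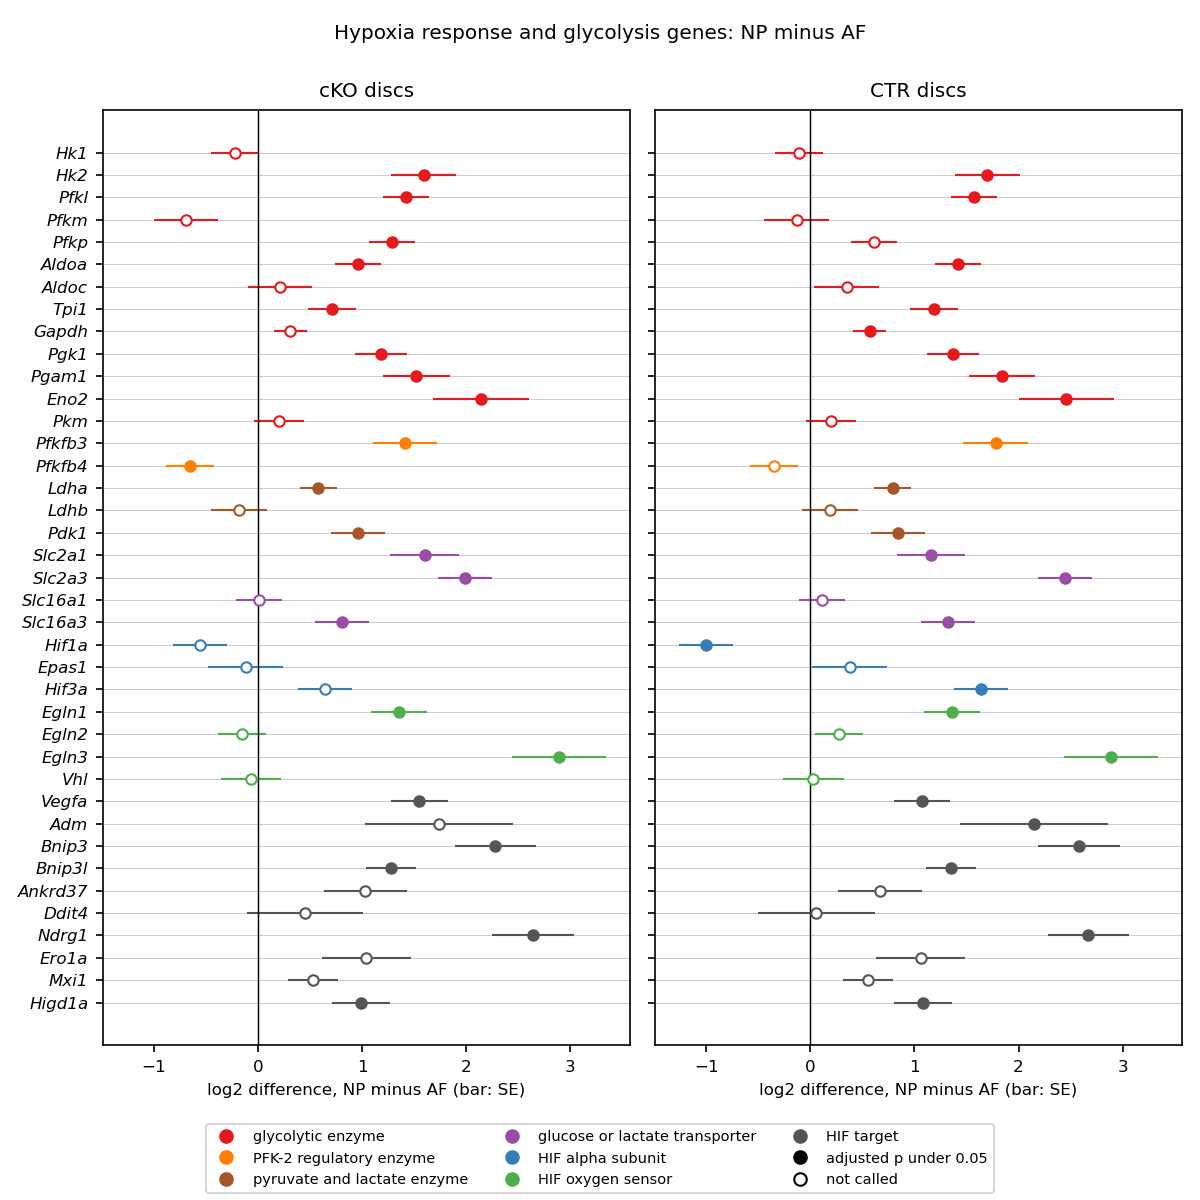
Log2 difference, NP minus AF, for the 39 measured members in cKO discs (left) and CTR discs (right), with the SE of the limma fit as bars, colour by role and filled points for an adjusted p under 0.05. Most filled points lie right of 0, with medians of all members at 0.96 (cKO) and 1.07 (CTR), and the filled points left of 0 are Pfkfb4 in cKO and Hif1a in CTR discs.

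Glucose enters cells through the facilitative transporters Slc2a1 (GLUT1) and Slc2a3 (GLUT3). Slc2a3 had signals of 11.80, 11.90, 11.88 and 11.27 in NP cKO, against 9.88, 9.96, 9.56 and 9.49 in AF cKO. In the controls it was 12.06, 10.67, 11.19 and 11.29 in NP CTR, against 9.18, 8.69, 8.45 and 9.09 in AF CTR. All NP arrays lay above all AF arrays in both genotypes. The difference was 1.99 (SE 0.26, adjusted p = 3.45e-05) in cKO and 2.45 (SE 0.26, adjusted p = 2.9e-06) in CTR discs in the limma fit, or 3.97-fold and 5.47-fold. Slc2a1 had signals of 19.86, 19.93, 19.90 and 19.38 in NP cKO, against 18.41, 18.26, 17.18 and 18.82 in AF cKO, and 19.82, 19.73, 19.90 and 19.88 in NP CTR, against 17.60, 19.17, 18.84 and 19.06 in AF CTR. Its NP values lie at or near the highest value of the table, 19.93, which Slc2a1 itself reached in NP cKO replicate 2. The measured differences were 1.60 (SE 0.33, adjusted p = 0.00197) in cKO and 1.16 (SE 0.33, adjusted p = 0.0176) in CTR discs. They may understate the true ones if the scale saturates there, which was not tested. Groups did not overlap in either genotype. In CTR discs the call rested on AF CTR replicate 1, the lowest array, without which the difference was 0.81 (adjusted p = 0.0661).

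Hexokinase traps glucose in the cell as a phosphate, and the phosphofructokinases commit it to glycolysis. Hk2, the inducible hexokinase, had 10.21, 11.84, 11.04 and 10.47 in NP cKO, against 9.13, 9.51, 9.0 and 9.54 in AF cKO, and 11.12, 10.16, 11.21 and 10.44 in NP CTR, against 8.84, 9.01, 8.97 and 9.32 in AF CTR. The groups did not overlap, and the NP signal was higher by 1.59 (SE 0.31, adjusted p = 0.00111) in cKO and 1.70 (SE 0.31, adjusted p = 0.000655) in CTR discs. Hk1, the constitutive hexokinase, differed by -0.22 and -0.11 and was not called (adjusted p = 0.511 in cKO and 0.783 in CTR). The liver-type phosphofructokinase Pfkl had 13.31, 13.99, 13.97 and 13.63 in NP cKO, against 12.30, 12.71, 12.18 and 12.01 in AF cKO, and 13.38, 13.36, 13.77 and 13.41 in NP CTR, against 11.37, 12.10, 12.08 and 12.09 in AF CTR. NP exceeded AF without overlap, by 1.42 (SE 0.22, adjusted p = 0.000202) in cKO and 1.57 (SE 0.22, adjusted p = 7.01e-05) in CTR discs. The platelet-type Pfkp had 13.73, 13.80, 14.51 and 13.88 in NP cKO, against 12.64, 12.73, 12.62 and 12.77 in AF cKO, and 14.02, 13.65, 13.82 and 13.06 in NP CTR, against 12.73, 13.20, 13.17 and 13.01 in AF CTR. It was called in cKO discs (1.29, SE 0.22, adjusted p = 0.00045), where the groups did not overlap, and not in CTR discs (0.61, SE 0.22, adjusted p = 0.0595), where they did. Without NP CTR replicate 4 it was called in CTR discs too (adjusted p = 0.0164), as it was after median centring. It was also called there without NP cKO replicate 3 (adjusted p = 0.0434), which changes the shared spread and not the CTR difference. The genotype difference of 0.68 (SE 0.31) for Pfkp itself had an unadjusted p of 0.0436 and an adjusted p of 0.732. The muscle-type Pfkm was not called (-0.69 in cKO, adjusted p = 0.105, and -0.13 in CTR discs) and had 8.65, 10.00, 8.88 and 9.44 in AF cKO replicates 1 to 4, highest in replicates 2 and 4, the arrays with the highest muscle marker means (9.65 and 9.14, against 6.77 and 6.41 in replicates 1 and 3).

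Phosphofructokinase is driven by fructose 2,6-bisphosphate, which the PFKFB enzymes make. Pfkfb3, an inducible form, had 13.09, 13.23, 13.91 and 13.32 in NP cKO, against 11.95, 11.96, 11.54 and 12.46 in AF cKO, and 12.22, 13.00, 13.40 and 12.51 in NP CTR, against 10.24, 11.67, 11.32 and 10.80 in AF CTR. NP was higher without overlap, by 1.41 (SE 0.31, adjusted p = 0.00312) in cKO and 1.78 (SE 0.31, adjusted p = 0.000482) in CTR discs. Pfkfb4, a related form, was lower in NP of cKO discs, at 7.40 ± 0.41 against 8.05 ± 0.21 in AF cKO (SD, n = 4 each), with a difference of -0.65 and an adjusted p of 0.0402 in limma. The groups overlapped, and the call was lost under 13 of 29 alternatives (adjusted p up to 0.125), among them without NP cKO replicate 1, 2 or 4 or AF cKO replicate 1, 3 or 4 (0.0752 to 0.107). In CTR discs the Pfkfb4 difference was -0.35 (adjusted p = 0.302).

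The middle and lower enzymes of the pathway were higher in NP in most cases. Aldoa, the main aldolase of most tissues, had 18.21, 18.44, 18.45 and 17.93 in NP cKO, against 17.28, 17.47, 16.93 and 17.51 in AF cKO, and 18.18, 18.02, 18.46 and 17.98 in NP CTR, against 16.22, 16.90, 17.16 and 16.67 in AF CTR. Pgk1, the phosphoglycerate kinase that makes ATP, had 15.81, 15.72, 15.88 and 15.57 in NP cKO, against 14.56, 15.32, 14.04 and 14.35 in AF cKO, and 15.71, 15.81, 15.89 and 14.98 in NP CTR, against 14.07, 14.01, 14.35 and 14.46 in AF CTR. Pgam1, a phosphoglycerate mutase, had 12.19, 13.68, 12.84 and 11.94 in NP cKO, against 10.79, 11.60, 10.81 and 11.38 in AF cKO, and 12.29, 12.56, 13.07 and 12.48 in NP CTR, against 10.37, 11.11, 10.94 and 10.65 in AF CTR. In none of these 3 genes did NP and AF overlap in either genotype. The differences in cKO and CTR discs were 0.96 (SE 0.22) and 1.42 (SE 0.22) for Aldoa, with adjusted p of 0.00408 and 0.000153. For Pgk1 they were 1.18 (SE 0.25) and 1.37 (SE 0.25), with adjusted p of 0.00266 and 0.000775. Pgam1 gave 1.52 (SE 0.32) and 1.84 (SE 0.32), with adjusted p of 0.00214 and 0.000441. Tpi1, the triose phosphate isomerase, had 15.77, 15.71, 16.33 and 15.86 in NP cKO, against 15.37, 15.80, 14.86 and 14.83 in AF cKO, and 15.83, 15.88, 15.87 and 15.47 in NP CTR, against 14.44, 14.44, 14.84 and 14.56 in AF CTR. The Tpi1 groups overlapped in cKO discs and not in CTR discs, with differences of 0.71 (adjusted p = 0.0280) and 1.19 (adjusted p = 0.000957). With the animal as a block, Tpi1 lost its call in cKO discs (adjusted p = 0.0562), as it did without NP cKO replicate 3 or AF cKO replicate 3 or 4 (0.0834 to 0.0975).

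Eno2, the neuronal-type enolase, was higher in NP by 2.14 (SE 0.46, adjusted p = 0.00281) in cKO and 2.46 (SE 0.46, adjusted p = 0.000947) in CTR discs. The Eno2 groups overlapped in cKO discs, with NP cKO replicate 4 at 7.70 and AF cKO replicate 4 at 7.85, and not in CTR discs. Its AF signals, 6.18 to 7.85 in cKO and 6.38 to 6.74 in CTR, reach down to the negative controls, most of all in CTR discs, so that the differences may be understated. Gapdh, a glycolytic enzyme gene often used as a loading standard, was at 19.35 ± 0.08 in NP cKO, against 19.04 ± 0.22 in AF cKO, and at 19.29 ± 0.05 in NP CTR, against 18.71 ± 0.09 in AF CTR (SD, n = 4 each). The Gapdh difference was called in CTR discs (0.57, SE 0.16, adjusted p = 0.0175, or 0.0521 with the animal as a block) and not in cKO discs (0.31, adjusted p = 0.168). Its NP signals reached 19.46, near the highest value of the table, so that these differences may be understated. Pkm, the pyruvate kinase gene that ends the pathway, and Aldoc, the brain-type aldolase, were not called in either genotype, with differences of 0.20 and 0.21 in cKO and 0.20 and 0.35 in CTR discs. Several of these enzymes have processed pseudogenes of near-identical sequence, whose signal an array may not separate.

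Pyruvate is turned to lactate by lactate dehydrogenase, and the kinase Pdk1 holds back its oxidation in the mitochondria. Ldha, the subunit that favours lactate, had 18.47, 18.43, 18.64 and 18.18 in NP cKO, against 17.86, 18.17, 17.59 and 17.78 in AF cKO, and 18.23, 18.35, 18.51 and 18.21 in NP CTR, against 17.27, 17.50, 17.64 and 17.72 in AF CTR. All NP values exceeded all AF values within each genotype, narrowly in cKO discs. The difference was 0.58 (SE 0.18, adjusted p = 0.0260, or 0.0514 with the animal as a block) in cKO and 0.79 (SE 0.18, adjusted p = 0.00483) in CTR discs. Without NP cKO replicate 1 or 3 or AF cKO replicate 3 or 4 the Ldha call in cKO discs was lost (adjusted p from 0.0517 to 0.0905). Ldhb, the subunit that favours pyruvate, was not called, with means between 7.09 and 7.44 in the 4 groups. Pdk1 was higher in NP by 0.96 (SE 0.26, adjusted p = 0.0127) in cKO and 0.84 (SE 0.26, adjusted p = 0.0305, or 0.0597 with the animal as a block) in CTR discs. The Pdk1 groups overlapped in cKO discs and not in CTR discs. The Pdk1 call was lost in cKO discs without AF cKO replicate 3 (adjusted p = 0.0548), and in CTR discs without NP CTR replicate 2, 3 or 4 or AF CTR replicate 1 or 4 (0.0528 to 0.0998). The lactate exporter Slc16a3 (MCT4) had 12.55, 13.22, 12.87 and 12.14 in NP cKO, against 11.78, 12.57, 11.51 and 11.68 in AF cKO, and 12.58, 12.19, 12.73 and 12.27 in NP CTR, against 10.75, 11.44, 11.34 and 10.97 in AF CTR. NP was higher by 0.81 (adjusted p = 0.0306) in cKO discs, where AF replicate 2 reached into the NP range, and by 1.32 (adjusted p = 0.00155) in CTR discs without overlap. In cKO discs the Slc16a3 call was lost without NP cKO replicate 2 or 3 or AF cKO replicate 1, 3 or 4 (adjusted p from 0.0631 to 0.0996). Slc16a1 (MCT1), which carries lactate in either direction, was not called (differences of 0.01 in cKO and 0.11 in CTR discs).

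**Figure D2:**
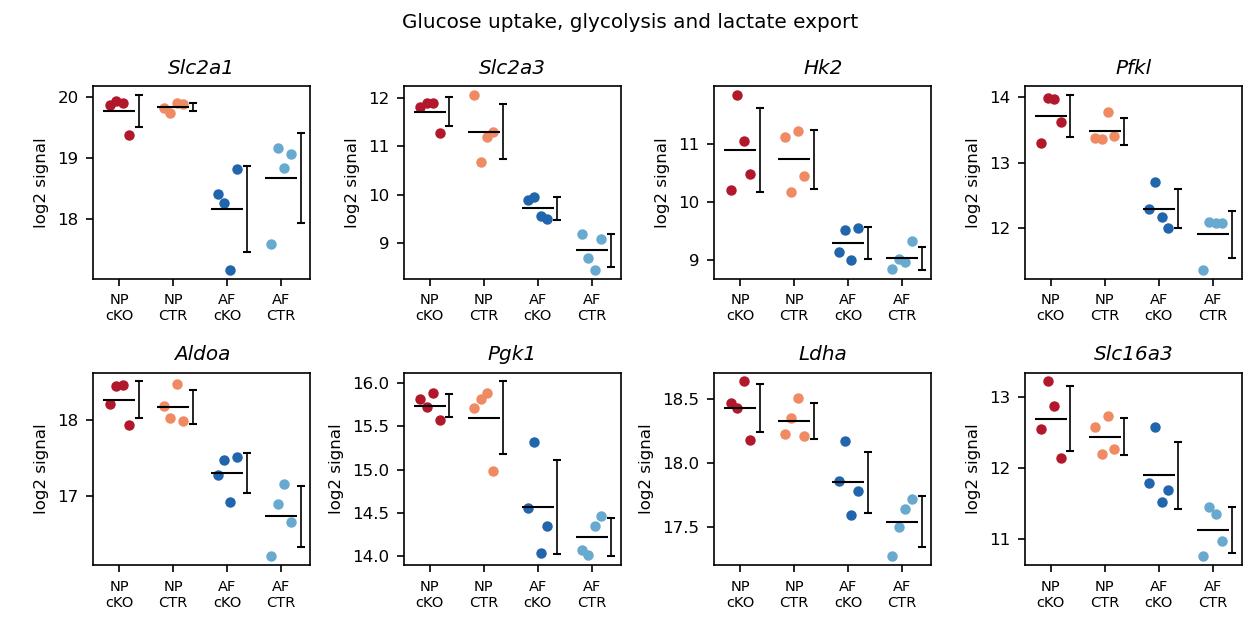
Log2 signal of 8 members of glucose uptake, glycolysis and lactate export in each array of NP cKO, NP CTR, AF cKO and AF CTR (points), with the group mean as a line and the SD beside it (n = 4). The NP group means lie above the AF group means in each panel, for example in Pfkl (13.72 ± 0.32 and 13.48 ± 0.20 in NP, 12.30 ± 0.30 and 11.91 ± 0.36 in AF). In the Slc16a3 and Pgk1 panels AF cKO replicate 2 reaches above single NP arrays.

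Of the 3 genes of HIF alpha subunits, none was called in cKO discs, and 1 was higher and 1 lower in NP of CTR discs. Hif1a had 13.26, 13.60, 13.87 and 13.88 in NP cKO, against 14.13, 13.98, 14.55 and 14.17 in AF cKO, and 12.95, 13.34, 13.79 and 13.65 in NP CTR, against 14.01, 15.25, 14.17 and 14.31 in AF CTR. NP lay below AF in every array of a genotype, and the difference was called in CTR discs (-1.0, SE 0.26, adjusted p = 0.0109) and not in cKO discs (-0.56, SE 0.26, adjusted p = 0.125). Epas1, which encodes HIF-2 alpha, was at 10.50 ± 0.61 in NP cKO, against 10.62 ± 0.66 in AF cKO, and 10.84 ± 0.67 in NP CTR, against 10.46 ± 0.34 in AF CTR, and was not called. Hif3a, whose products include inhibitors of the other subunits, had 5.97, 5.71, 5.72 and 6.01 in NP cKO, against 5.13, 5.08, 5.0 and 5.63 in AF cKO, and 7.66, 6.13, 6.73 and 6.59 in NP CTR, against 5.07, 5.08, 5.51 and 4.88 in AF CTR. Its means in NP cKO and in both AF groups lay under the negative controls. The call in CTR discs (1.64, SE 0.26, adjusted p = 0.000209) therefore rests on NP CTR alone, and the size of the difference is not interpretable. In cKO discs (0.64) it was called without NP CTR replicate 1 or AF cKO replicate 4 (adjusted p = 0.0307 and 0.0462). It was called from the 8 cKO arrays alone too, in each case on levels under the negative controls. Leaving out NP CTR replicate 1 changes the shared spread and not the cKO difference.

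Among the oxygen sensors, the HIF-inducible ones were higher in NP. Egln3 (PHD3) had 15.17, 16.74, 15.97 and 14.74 in NP cKO, against 12.89, 12.53, 11.95 and 13.68 in AF cKO, and 14.60, 15.02, 15.18 and 15.62 in NP CTR, against 11.04, 12.58, 12.16 and 13.07 in AF CTR. Egln1 (PHD2), the main sensor in most cells, had 14.31, 14.81, 14.39 and 13.87 in NP cKO, against 12.81, 12.86, 12.80 and 13.51 in AF cKO, and 14.37, 13.72, 14.35 and 14.50 in NP CTR, against 12.24, 13.37, 12.95 and 12.95 in AF CTR. Neither gene overlapped between NP and AF. Egln3 showed the largest measured difference of the 39 members in both genotypes, where those of Eno2, Slc2a1, Gapdh and Hif3a may be limited by background or by the top of the range. It was 2.89 (SE 0.45, adjusted p = 0.000178) in cKO and 2.89 (SE 0.45, adjusted p = 0.000156) in CTR discs, or 7.42-fold and 7.43-fold. For Egln1 it was 1.35 (adjusted p = 0.00132) and 1.36 (adjusted p = 0.00129). Egln2 (PHD1) and Vhl, which recognises the hydroxylated subunit, were not called, with differences of -0.15 and -0.07 in cKO and 0.28 and 0.03 in CTR discs.

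All 10 HIF targets had a mean above that of the AF in both genotypes, and 5 in cKO and 6 in CTR discs were called. Over all probe sets, 54.4% in cKO and 52.8% in CTR discs had a difference above 0, and 13.3% and 9.96% were called higher. Ndrg1, a stress-induced gene of differentiation, had 16.44, 17.54, 17.34 and 15.63 in NP cKO, against 13.93, 14.11, 13.48 and 14.88 in AF cKO, and 16.16, 16.02, 16.82 and 16.22 in NP CTR, against 12.95, 14.38, 13.97 and 13.24 in AF CTR. Bnip3, a receptor for the removal of mitochondria, had 13.95, 15.07, 14.51 and 13.47 in NP cKO, against 11.83, 12.01, 11.07 and 12.97 in AF cKO, and 14.17, 14.11, 15.32 and 14.49 in NP CTR, against 11.30, 12.31, 12.18 and 11.96 in AF CTR. Its relative Bnip3l (NIX) had 14.91, 15.32, 15.28 and 14.33 in NP cKO, against 13.61, 13.85, 13.20 and 14.06 in AF cKO, and 14.71, 14.89, 14.99 and 14.92 in NP CTR, against 13.03, 13.75, 13.60 and 13.75 in AF CTR. None of the 3 genes overlapped between NP and AF. Ndrg1 was higher by 2.64 (SE 0.39, adjusted p = 0.000123) in cKO and 2.67 (SE 0.39, adjusted p = 9.52e-05) in CTR discs, or 6.23-fold and 6.37-fold. Bnip3 was higher by 2.28 (SE 0.39, adjusted p = 0.000404) and 2.58 (SE 0.39, adjusted p = 0.000111). Bnip3l was higher by 1.28 (adjusted p = 0.00106) and 1.35 (adjusted p = 0.000678), in the same order.

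Vegfa, the growth factor of blood vessels, had 15.71, 16.62, 15.66 and 15.85 in NP cKO, against 14.69, 14.35, 13.54 and 15.05 in AF cKO, and 15.81, 15.49, 15.49 and 15.85 in NP CTR, against 14.49, 14.66, 14.49 and 14.74 in AF CTR. NP lay above AF without overlap, by 1.55 (SE 0.27, adjusted p = 0.000554) in cKO and 1.07 (SE 0.27, adjusted p = 0.00957) in CTR discs. In CTR discs the Vegfa call was lost after a second quantile normalization (adjusted p = 0.0513). Higd1a, a protein of mitochondria, was higher by 0.99 (adjusted p = 0.0138) in cKO and 1.08 (adjusted p = 0.00938) in CTR discs, and lost its call in cKO discs without AF cKO replicate 2 (adjusted p = 0.0533). Adm, which encodes the vasodilator adrenomedullin, was called in CTR discs (2.15, SE 0.71, adjusted p = 0.0396) and not in cKO discs (1.74, SE 0.71, adjusted p = 0.0794). With the animal as a block, Adm was called in both (adjusted p = 0.0279 in cKO and 0.0122 in CTR), and so was Ero1a, an oxidase of protein folding (differences of 1.04 and 1.06, adjusted p = 0.0313 and 0.0341). The Adm call in CTR discs was lost without NP CTR replicate 1, 2 or 3 or AF CTR replicate 1, 3 or 4 (adjusted p from 0.056 to 0.116), and in cKO discs Adm was called without NP cKO replicate 4 (0.0103). Ero1a was called in cKO discs without NP cKO replicate 4 (adjusted p = 0.0284) and in CTR discs without NP cKO replicate 2 (0.00719), and Ero1a was also called in cKO discs after quantile normalization and in CTR discs from the 8 CTR arrays alone. Ankrd37, Mxi1 and Ddit4 were not called in either genotype as deposited. Their differences were 1.03, 0.53 and 0.45 in cKO and 0.67, 0.55 and 0.06 in CTR discs. In CTR discs the Ankrd37 difference includes AF CTR replicate 1 at 6.01, against 8.01 to 8.22 in the other AF CTR arrays. The NP CTR mean of Ankrd37 was 8.24. Ankrd37 was called in cKO discs under 7 of 29 alternatives. Among them were median centring (adjusted p = 0.0485), quantile normalization (0.0345), array weights (0.0302) and the 8 cKO arrays alone (0.0194). It was also called there without AF CTR replicate 1 (adjusted p = 0.0103), and Mxi1 was after quantile normalization (0.0231). AF CTR replicate 1 (Ankrd37 in cKO discs) and NP cKO replicate 2 (Ero1a in CTR discs) are outside the comparison. Leaving them out changes the shared spread and not the difference.

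**Figure D3:**
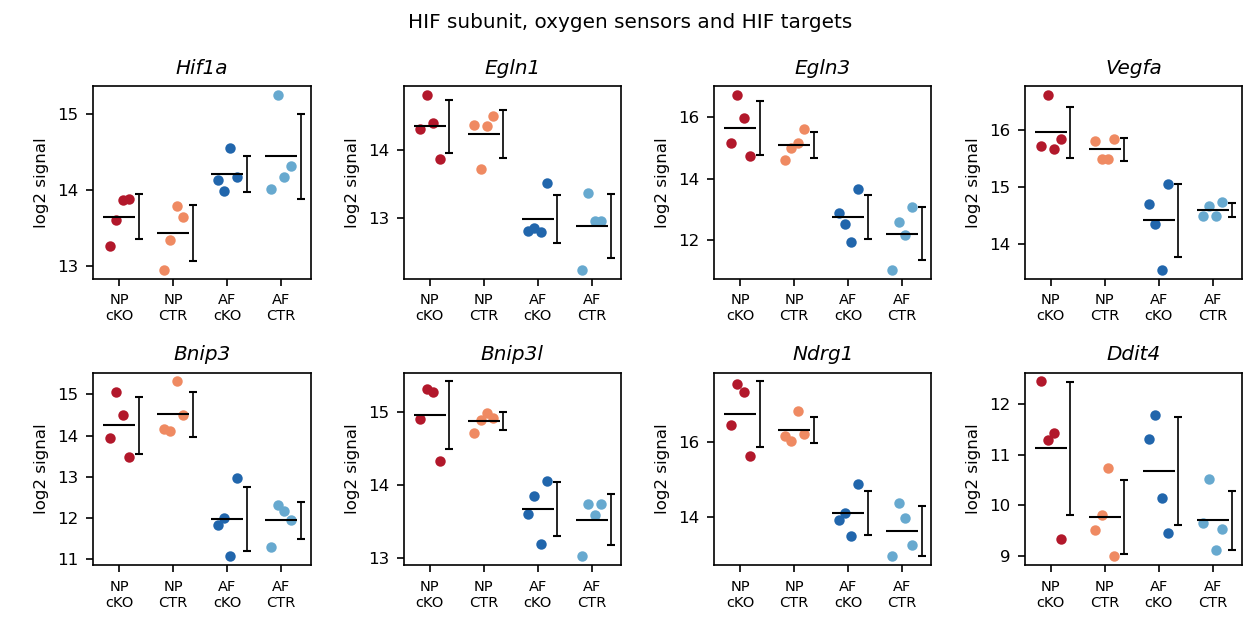
Log2 signal of the HIF subunit gene Hif1a, the oxygen sensors Egln1 and Egln3 and 5 HIF targets in each array of NP cKO, NP CTR, AF cKO and AF CTR (points), with the group mean as a line and the SD beside it (n = 4). Hif1a lies lower in NP than in AF, whereas Egln1, Egln3, Vegfa, Bnip3, Bnip3l and Ndrg1 lie higher, and Ddit4 overlaps in all groups (9.33 to 12.44, 9.0 to 10.73, 9.46 to 11.78 and 9.13 to 10.51).

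Other genes of both pathways were called in both directions. Of 37 further genes of glycolysis and glycogen, 5 were higher and 9 lower in NP than AF of cKO discs, and 4 were higher and 3 lower in CTR discs, with medians of -0.18 and -0.06. Of 45 further HIF pathway genes, 5 were higher and 7 lower in cKO discs, and 10 higher and 8 lower in CTR discs. Their medians were 0.13 and 0.10. Over all probe sets, 13.3% were called higher and 12.6% lower in cKO discs, and 9.96% and 10.1% in CTR discs. The further pathway genes with the smallest p went in both directions. Mif, a cytokine induced by HIF, was at 13.11 ± 0.67 in NP cKO, against 11.30 ± 0.31 in AF cKO, and at 12.91 ± 0.33 in NP CTR, against 10.94 ± 0.57 in AF CTR (SD, n = 4 each), with differences of 1.81 (adjusted p = 0.000520) and 1.97 (adjusted p = 0.000227). The mitochondrial adenylate kinase Ak4 was higher by 1.79 (SE 0.35, adjusted p = 0.00140) in cKO and 2.17 (SE 0.35, adjusted p = 0.000252) in CTR discs. Pdk4, a relative of Pdk1, was higher by 1.58 (SE 0.29, adjusted p = 0.000667) in cKO and 1.34 (SE 0.29, adjusted p = 0.00250) in CTR discs. Lox, the collagen crosslinking oxidase, was at 7.01 ± 1.51 in NP cKO, against 12.83 ± 1.79 in AF cKO, and at 5.68 ± 0.22 in NP CTR, against 11.73 ± 0.52 in AF CTR. The fitted Lox difference in CTR discs was -6.05 (SE 0.70, adjusted p = 7.14e-06), and since NP CTR lies under the negative controls its size is not interpretable beyond that background. Plod1, a lysyl hydroxylase of collagen, was lower in NP, with differences of -2.18 (SE 0.35, adjusted p = 0.000244) in cKO and -2.47 (SE 0.35, adjusted p = 6.24e-05) in CTR discs.

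After Sox9 loss in the NP, no member was called (limma, adjusted p under 0.05), where 0.122% of all probe sets were. At an unadjusted p under 0.05, 1 member was higher and 1 lower, and over all probe sets 4.58% passed, with 1.78% higher and 2.81% lower. The median change of the members was 0.12, with 29 of 39 above 0, against a median of 0 and 50% above 0 over all probe sets. After quantile normalization the median was 0.23, without NP cKO replicate 2 it was 0.04, and without NP CTR replicate 3 it was 0.24. The 95% interval of the change stayed within a 2-fold rise and a 2-fold fall for 27 of 39 members, with a median half-width of 0.56 on the log2 scale. Among these were Pgk1 (0.15, interval -0.39 to 0.68), Ldha (0.11, -0.28 to 0.49), Hif1a (0.22, -0.33 to 0.77) and Vegfa (0.30, -0.28 to 0.87). Slc2a1 also counts among the 27 (-0.07, -0.76 to 0.63), but its NP signals lay near the highest value of the table, where a rise might not show. Saturation of the scale was not tested.

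The 3 members with the smallest p in the NP were Hif3a, Ddit4 and Egln2. Hif3a changed by -0.92 (SE 0.26, unadjusted p = 0.00239, adjusted p = 0.415), with all NP cKO arrays under the negative controls and NP CTR between 6.13 and 7.66. It was the 1 member lower without overlap, as were 1.82% of all probe sets. Ddit4, an inhibitor of the mTOR growth pathway induced by many stresses, had 12.44, 11.29, 11.43 and 9.33 in NP cKO, against 9.52, 9.82, 10.73 and 9.0 in NP CTR. In 3 of 4 cKO arrays it lay above all controls, and in replicate 4 it lay within them, for a change of 1.35 (SE 0.56, unadjusted p = 0.0269, adjusted p = 0.961). Egln2 had 7.92, 8.30, 8.88 and 8.05 in NP cKO, against 8.75, 8.99, 8.82 and 8.50 in NP CTR, a change of -0.48 (SE 0.23, unadjusted p = 0.0522, adjusted p = 1.0) with overlapping groups. Adm spread widely, from 10.34 to 14.06 in NP cKO and from 10.16 to 12.42 in NP CTR, with a change of 1.31 whose interval ran from -0.18 to 2.81.

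In the AF, no member was called after Sox9 loss either, where 0.0991% of all probe sets were. At an unadjusted p under 0.05, 6 members were higher and 0 lower, and over all probe sets 10.6% passed, with 4.94% higher and 5.69% lower. The median change was 0.26, with 31 of 39 members above 0, against -0.03 and 46.4% over all probe sets. Leaving out 1 AF array gave medians from 0.18 (AF cKO replicate 4) to 0.33 (AF cKO replicate 3), and quantile normalization gave 0.16. It moved the share of all probe sets called to 0.504% without AF cKO replicate 4, and to 0.639% without replicate 1 of AF CTR, with 0 members called. Slc2a3 had 9.88, 9.96, 9.56 and 9.49 in AF cKO, against 9.18, 8.69, 8.45 and 9.09 in AF CTR, and the groups did not overlap (0.87, SE 0.26, unadjusted p = 0.00366, adjusted p = 0.249). The same held for Slc16a3, with values given above, and the change was 0.76 (SE 0.26, unadjusted p = 0.00957, adjusted p = 0.323). These 2 members, 2 of 39, were higher without overlap, as were 1.79% of all probe sets. Pfkfb3, with overlapping groups, changed by 0.97 (SE 0.31, adjusted p = 0.278). The other 3 were Tpi1 (0.65), Aldoa (0.56) and Adm (1.73), with adjusted p from 0.330 to 0.411.

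Marker levels of other tissues differed among the AF arrays alongside these values. Muscle markers had list means of 9.65 and 9.14 in AF cKO replicates 2 and 4, against at most 7.14 in AF CTR, and neutrophil markers ran from 9.42 to 12.96 in AF cKO and from 6.50 to 11.40 in AF CTR. Without AF cKO replicates 2 and 4 the members' median change was 0.08, and the changes were 0.87 for Slc2a3, 0.74 for Pfkfb3, 0.55 for Tpi1, 0.52 for Slc16a3, 0.37 for Aldoa, 1.12 for Adm and -0.03 for Pfkm. The full comparison gave 0.45 for Pfkm. Leaving out these arrays keeps only AF cKO replicates 1 and 3, and replicate 3 was the lowest of its group in 20 of 39 members. A part of muscle therefore cannot be told apart here from the low signals of replicate 3. Of the muscle forms outside the list, chosen after their values were seen, the muscle enolase Eno3 was at 7.80 and 8.86 in AF cKO replicates 2 and 4, and at 6.94 and 7.28 in replicates 1 and 3, against 6.79 to 7.24 in AF CTR. Pygm was at 9.63 and 10.02 in AF cKO replicates 2 and 4. It was at 8.31 and 8.24 in replicates 1 and 3, within the AF CTR range of 7.37 to 9.02. Pgam2, at most 6.47 in AF cKO, lay under the highest negative control median of 6.59. The part of muscle and of blood-forming cells in the members' changes was not tested beyond leaving out AF cKO replicates 2 and 4.

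**Figure D4:**
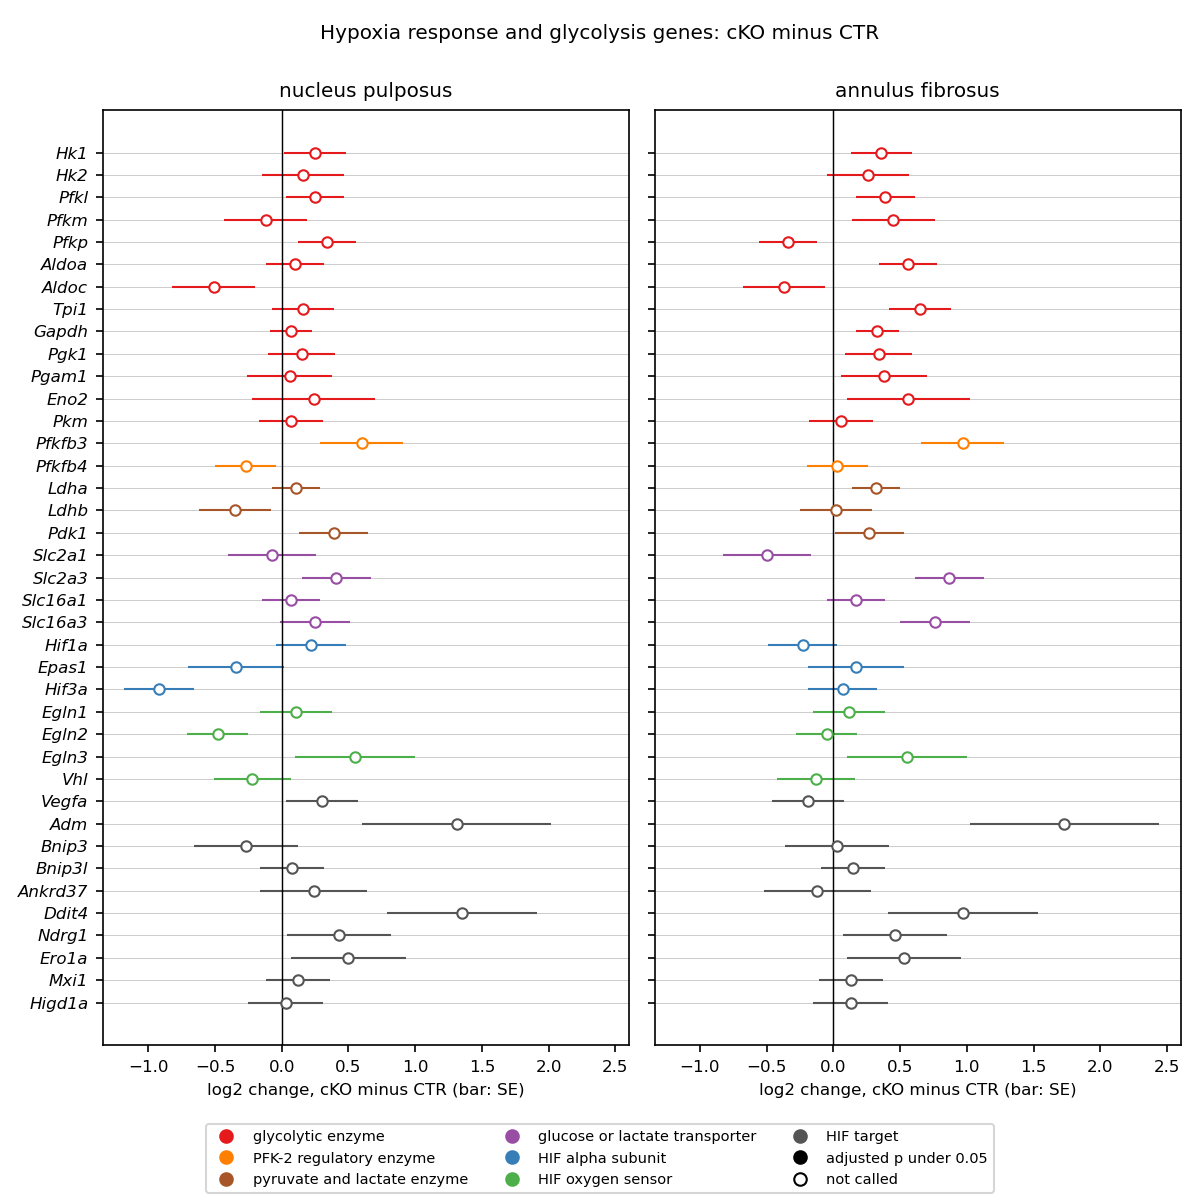
Log2 change, cKO minus CTR, for the 39 measured members in the NP (left) and the AF (right), with the SE of the limma fit as bars and colour by role. No point is filled, since no member passed an adjusted p of 0.05, and the changes run from -0.92 to 1.35 in the NP and from -0.50 to 1.73 in the AF.

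The response to Sox9 loss did not differ detectably between the tissues for any member. None had an adjusted p under 0.05 for the difference of the changes in limma, as was so for 0 of 22206 probe sets, and 2 had an unadjusted p under 0.05, as did 6.74% of all probe sets. The difference was above 0 for 8 of 39 members, against 51.6% of all probe sets. The direction of the median, -0.14, was not stable, at 0.06 after quantile normalization and 0.03 without AF cKO replicates 2 and 4. The 2 were Hif3a (-0.99, SE 0.37, unadjusted p = 0.0149) and Pfkp, described above. For Hif3a the NP cKO mean and both AF means lay under the negative controls, so the size of its difference is not interpretable. The third smallest p was that of Tpi1 (-0.49, unadjusted p = 0.143). The interval stayed within 2-fold in either direction for 14 of 39 members, and reached past it for 25. Among the further pathway genes, Stc2, a hormone gene induced by stress, fell by 1.70 in AF cKO (8.31 ± 0.24 in AF cKO against 10.02 ± 0.62 in AF CTR, SD, n = 4 each, limma adjusted p = 0.0472), and no other of these genes was called in either tissue.

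Within a group, many members moved together on single arrays. NP cKO replicate 4 had the lowest signal of its group in 22 of 39 members, and NP cKO replicate 2 the highest in 19. In NP CTR, replicate 3 was the highest in 25 members and the lowest in 0. AF cKO replicate 3 was the lowest in 20 members, AF CTR replicate 1 the lowest in 22, and AF CTR replicate 2 the highest in 25. Some marker lists of other tissues were high on the low arrays and others were not. NP cKO replicate 4 had the highest AF and tendon marker mean of the NP (9.81). AF cKO replicate 3 and AF CTR replicate 1 had the highest neutrophil (12.96 and 11.40), osteoclast (10.31 and 9.18) and osteoblast (14.47 and 12.28) means of their groups. Their endothelial (7.98 and 7.99), macrophage (8.75 and 8.40), erythroid (8.26 and 6.94) and cartilage (10.71 and 13.68) means were the highest too. Adipocyte markers were highest only on the second (9.64), and AF and tendon markers only on the first (14.18). Muscle markers were lowest of the group on AF cKO replicate 3 (6.41) and at 6.40 on AF CTR replicate 1 (group 6.30 to 7.14). Notochordal NP markers were lowest of the group on both (10.89 and 11.16). Osteoclast markers were lowest of the group on NP cKO replicate 4 (5.10), a level under the negative controls where a rank is not interpretable. The part of these cell types in the members' values was not tested. Without AF CTR replicate 1 and AF cKO replicate 3, 19 members were called in NP against AF of cKO discs and 22 in CTR discs, where 18.9% and 16.1% of all probe sets were.

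**Figure D5:**
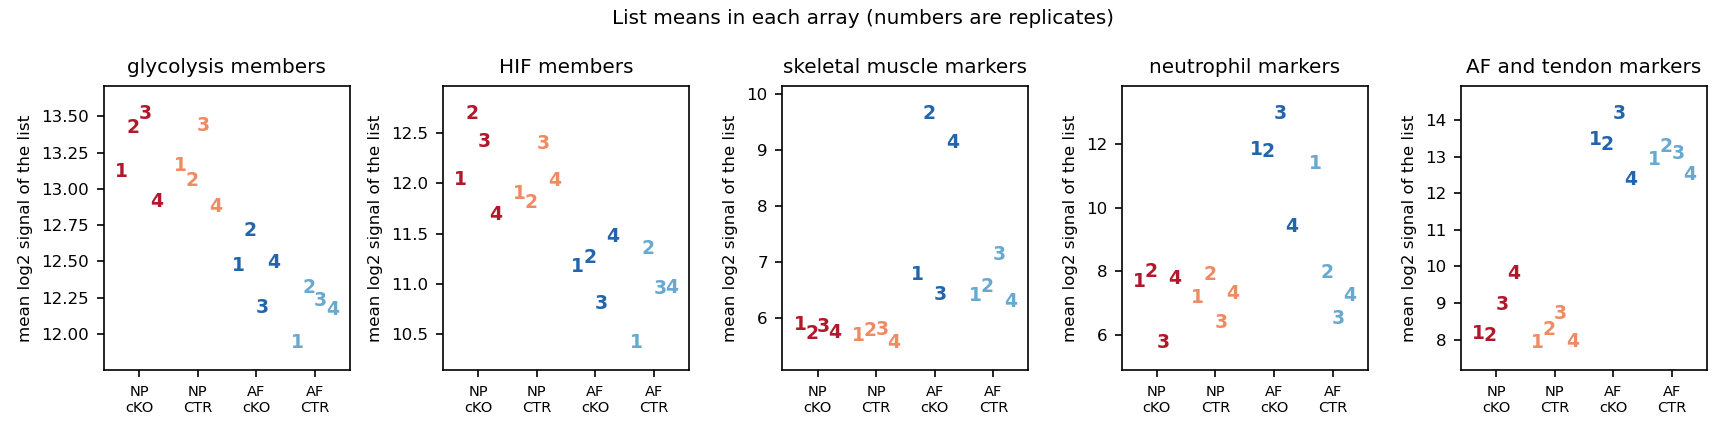
Mean log2 signal per array of the 22 glycolysis members, the 17 HIF members and 3 marker lists in NP cKO, NP CTR, AF cKO and AF CTR, with the replicate number drawn at each value. Both member means are higher in each NP array than in any AF array of the same panel (12.88 or more against 12.71 or less for glycolysis, 11.69 or more against 11.47 or less for HIF), and NP cKO replicate 4, AF cKO replicate 3 and AF CTR replicate 1 are the lowest of their groups.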

How the data were processed

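The members and gene lists were chosen with earlier results of these data known. The deposited values are log2 signals of 1-colour Affymetrix arrays, made by the authors with sst-RMA per the labels, in Transcriptome Analysis Console per the submitters' processing notes (software version: not given in the sources used here). Detection, p and fold filters named in the labels (fold 1.75) had not been applied to the table. Of 28846 probe sets, 6640 controls were left out and 22206 tested. The 5222 negative controls measured background. Probe sets were named from the platform annotation, where 19572 carry 1 symbol, none several and 2634 none. Each measured member has 1 probe set. The number of arrays limits the precision.

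A linear model with a mean for each of the 4 groups was fitted in limma 3.58.1 (R 4.3.3) with default moderation, and p-values were adjusted over all 22206 probe sets. The fit was tested on simulated data. All members are accounted for. Array values are given for up to 12 called members per comparison, the 3 with the smallest p in each, and Hif1a, Slc2a1, Ldha, Pgk1 and Vegfa. Further pathway genes past the threshold are named, at most 4 per comparison. Titles give the NP and AF sample of a mouse one code, taken as the pairing. After group means were removed, NP and AF of a mouse had r between -0.293 and 0.348. Alternatives were other scalings, filters, moderation, array weights, thresholds, blocks and samples.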

Additional observations from a re-analysis of the deposited data

Results flagged for a closer look

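In 9 of 156 pairs of a member and a group of 4 arrays, 1 array stood apart from the other 3, and chance flags about 1 in 20 such groups. In NP cKO replicate 4, Slc2a1 was at 19.38 (19.86 to 19.93 in the other NP cKO arrays) and Slc2a3 at 11.27 (11.80 to 11.90). In AF cKO replicate 4, Epas1 was at 11.60 (10.21 to 10.43 in the other AF cKO arrays) and Egln1 at 13.51 (12.80 to 12.86). In AF CTR replicate 1, Pfkl was at 11.37 (12.08 to 12.10 in the other AF CTR arrays), Pkm at 17.46 (17.89 to 17.96) and Ankrd37 at 6.01 (8.01 to 8.22). Pfkl was at 13.77 in NP CTR replicate 3 (13.36 to 13.41 in the other NP CTR arrays), and Tpi1 was at 15.47 in NP CTR replicate 4 (15.83 to 15.88).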

How the results depend on the processing

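For NP against AF, the number of members called ran from 17 to 24 in cKO and from 21 to 25 in CTR discs over 29 alternatives. Leaving out 1 array gave 17 to 23 in cKO and 21 to 25 in CTR discs. No called member changed direction. In cKO discs 16 of 22 called members and in CTR discs 18 of 24 kept their calls under all of these, among them Slc2a3, Hk2, Pfkl, Aldoa, Pgk1, Pgam1, Egln1, Egln3, Bnip3, Bnip3l and Ndrg1 in both. For cKO against CTR, 0 members were called under each alternative at an adjusted p and without any 1 array, in NP, in AF and for their difference. With the thresholds of the labels, 2 members passed in NP (Ddit4 higher, Hif3a lower), 3 in AF (Slc2a3, Pfkfb3 and Adm, all higher) and 1 for the difference (Hif3a), where 1.18%, 3.49% and 4.4% of all probe sets passed. Centring arrays on their medians moved the median of all probe sets in NP against AF of CTR discs to 0.16, against 0.04 as deposited, and raised the share of calls that were higher in NP to 65.1%, against 49.6%. The members' median stood 1.03 above that of all probe sets under both. With the animal as a fixed replicate block, 22 members were called in cKO and 23 in CTR discs, and the calls that changed are given beside the results. With the replicate number as a replicate block across genotypes these were 23 and 25. Signals near the negative controls (Hif3a, and Eno2 in AF) bound what can be measured. Those near the highest value (Slc2a1 and Gapdh in NP) may do so too, but saturation was not tested.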
